A study of Mus musculus with 18 samples.

Results

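The genes described here encode the machinery of mitosis and cytokinesis. They were chosen as a list of 55 gene symbols, 55 of which were found once each among the 32941 genes of every deposited table. The study behind the data concerns peroxisomal ether lipids and the formation of neurons in the mouse cortex, and it has 18 RNA sequencing libraries in 4 tables. Brain from wild-type (WT) embryos was sampled at embryonic days 11, 12, 13, 14, 16 and 18 (E11 to E18), with 1 library per stage. The design text names cortex and triplicates for these stages, whereas the labels say brain, so the tissue and what 1 stage value stands for are uncertain. Primary neural stem cells carried a Pex7 short hairpin RNA (NSC-Pex7sh, labelled PEX7-knockdown, 2 libraries) or a scrambled one (NSC-Scramble, labelled WT, 2 libraries). A first overexpression set compared PLA1 (PLAAT3-PEX11 overexpression, 2 libraries) with Ctrl1 (WT, 2 libraries), and a second set compared Neuron-PLA (the same overexpression, 2 libraries) with Neuron-ctrl (WT, 2 libraries). Both sets are labelled brain with no age, and no label names a promoter, a delivery method, a strain or how the neurons were obtained. Whether libraries of a group stem from different animals or cultures is not in the labels. Between groups of 2 libraries, the p-values below therefore reflect library-to-library spread alone, and that spread may be technical. For the stages, with 1 library each, they reflect scatter around a straight line in embryonic day, not spread between replicates.

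Entry into mitosis is driven by Cdk1 bound to cyclins A and B, which phosphatases of the Cdc25 family switch on. Kinetochores then attach chromosomes to the spindle, the spindle checkpoint holds back the anaphase-promoting complex until all are attached, and the central spindle and contractile ring divide the cell. In the embryonic cortex these genes are known as marks of cycling radial glia and intermediate progenitors, since neurons do not divide. In bulk libraries, fewer dividing cells and less of these RNAs per cell cannot be told apart.

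Values are RPKM, reads scaled to exon length and to the library's read total. Tables were normalised separately, so tests stay inside a table. A change is the difference of mean log2(RPKM + 1), which understates the change of low genes, with its standard error (SE). A gene was called when limma's Benjamini-Hochberg adjusted p over all genes tested was under 0.05. Read totals lay between 41501880 and 54373317 in the stage libraries and between 16147911 and 28104927 in the other 12. Behind single member values stood a median of 2903 reads in the stages, 746.5 in the stem cells, 2502 in the first set and 460.5 in the neuron set, with the fewest (66) for Ccnb2 in the neuron set. The marker lists fitted the labels in part. Summed RPKM of 17 pan-neuronal markers was 2713 to 2772 in Neuron-PLA and 2763 to 2819 in Neuron-ctrl, against 604 to 612 in PLA1 and 1164 to 1166 in Ctrl1. The libraries named for neurons also held radial glia markers, at 355 to 376 in Neuron-PLA and 495 to 501 in Neuron-ctrl. The stem cell libraries held pan-neuronal markers, at 1587 to 1610 in NSC-Pex7sh and 1346 to 1814 in NSC-Scramble. Summed endothelial markers were at 1.67 to 2.08 in PLA1 and 1.71 to 1.84 in Ctrl1, against 31.5 (E12) to 62.2 (E18) in the stages.

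Promoters of mitosis genes are known for CCAAT boxes followed by a cell-cycle genes homology region (CHR), an element through which transcription is held low outside late cell cycle phases. RefSeq promoter windows (GRCm38.p6, 250 bases before to 50 after the start) were matched by symbol for 45 of the 55 members, which gave 47 windows. Incenp, Dlgap5, Cdc25c, Smc4, Spc24, Ccna2, Tpx2, Aurkb, Kif20a and Pbk were not matched. The CCAAT box was searched as CCAAT or ATTGG and the CHR as TTTGAA or TTCAAA, so that both strands were covered, and matches that share end bases were counted for both motifs. A CHR match was present in 35 of 47 member windows (74.5%), against 17.9% of all 32851 windows, and a CCAAT match in 35 (74.5%), against 37.4%. Both motifs were present in 30 member windows (63.8%) and in 6.95% of all windows. Within 50 bases of the start, 32 member windows (68.1%) held a CHR match, against 4.94% of all windows, a distance chosen after the positions had been seen. The stretches below show how these letters lie in the 150 bases before the start of 6 members, taken from the highest mean RPKM down among those with both motifs inside that stretch and at most 30 of its bases exonic in GENCODE M21. Members whose only CHR match lies after the start, the most frequent position, are therefore not shown. Ckap2l and Smc2 have a further CHR match after the start (offsets 41 and 26), outside the stretches. They lie at chr4:118437344-118437493 (Cdc20), chr11:99024190-99024339 (Top2a), chr2:129297213-129297362 (Ckap2l) and chr7:135716380-135716529 (Mki67), all on the minus strand, and at chr4:52439071-52439220 (Smc2) and chr19:37376232-37376381 (Kif11) on the plus strand. Capitals mark CCAAT box and CHR letters.
Cdc20: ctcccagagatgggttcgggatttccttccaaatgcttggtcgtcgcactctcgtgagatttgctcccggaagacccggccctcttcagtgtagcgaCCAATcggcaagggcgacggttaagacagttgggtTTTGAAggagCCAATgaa
Top2a: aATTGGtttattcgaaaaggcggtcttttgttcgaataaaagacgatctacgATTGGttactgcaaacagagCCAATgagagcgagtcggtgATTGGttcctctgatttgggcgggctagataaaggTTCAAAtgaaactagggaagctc
Ckap2l: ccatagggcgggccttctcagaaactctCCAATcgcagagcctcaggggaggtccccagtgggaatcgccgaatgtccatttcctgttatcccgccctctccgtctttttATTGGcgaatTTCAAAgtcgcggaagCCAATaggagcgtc
Mki67: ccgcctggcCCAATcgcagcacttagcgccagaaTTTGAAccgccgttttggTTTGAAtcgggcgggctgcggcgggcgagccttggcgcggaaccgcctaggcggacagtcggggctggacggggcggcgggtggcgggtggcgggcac
Smc2: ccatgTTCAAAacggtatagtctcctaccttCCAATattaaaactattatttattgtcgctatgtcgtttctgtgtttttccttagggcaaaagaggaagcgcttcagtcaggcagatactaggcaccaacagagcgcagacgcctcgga
Kif11: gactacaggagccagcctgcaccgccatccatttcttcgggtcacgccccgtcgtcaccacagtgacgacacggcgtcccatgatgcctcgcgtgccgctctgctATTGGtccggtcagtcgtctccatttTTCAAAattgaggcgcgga

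In Cdc20, Top2a, Ckap2l and Kif11 the CHR letters stood near the end of the stretch, downstream of at least 1 CCAAT match. In the stretch of Mki67 a pair of CHR matches and in that of Smc2 a single one lay farther from the start. The CHR variants TTCGAA and TTTAAA, which read alike on both strands, were present in 8.51% and 21.3% of member windows, against 1.56% and 13.2% of all windows. A match is a description of letters, not of binding. The median E11 over E18 ratio of RPKM was 17.7 for 33 members with a CHR match and 19.2 for 12 without, and the median log2 change in PLA1 against Ctrl1 was 0.65 and 0.55.

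**Figure D1:**
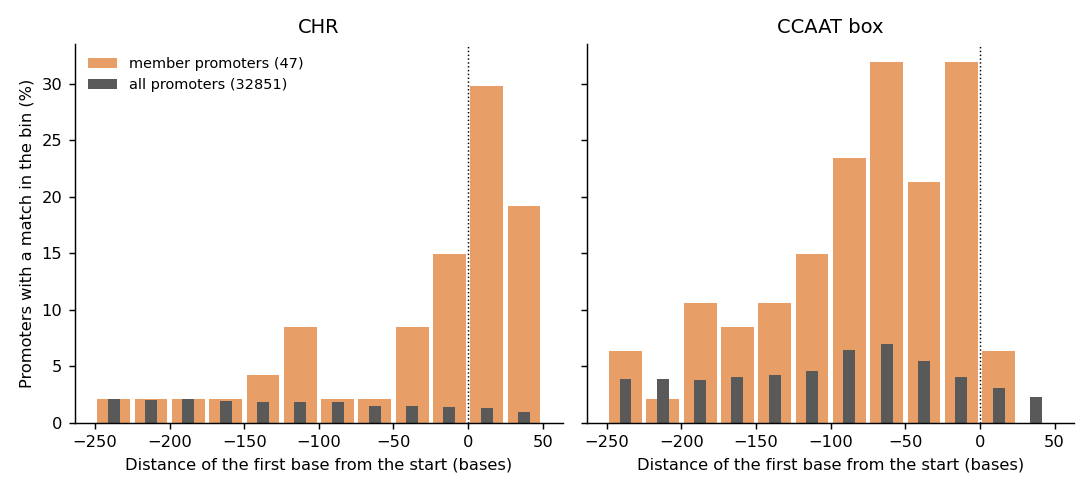
Share of promoter windows (%) with a CHR match (left) or a CCAAT match (right) in each bin of 25 bases, by distance of the match's first base from the start, for 47 member promoters (wide bars) and all 32851 promoters (narrow bars). Member CHR matches are most frequent just after the start, and member CCAAT matches within 100 bases before it.

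Over the stages the 55 members fell together. With limma's slope on embryonic day over 6 single libraries, 55 of 55 members fell and 0 rose, against 25.5% of 12921 genes tested that fell. The median slope was -0.44 per day on the log2 scale (from -0.57 for Ube2c to -0.26 for Cdc25b), beside -0.02 over all genes, and adjusted p lay between 0.000652 and 0.00268. The median member stood at 32.6 RPKM at E11, 23.1 at E12, 16.7 at E13, 16.4 at E14, 7.56 at E16 and 1.75 at E18. The list's summed RPKM made up 0.574% of all RPKM at E11 and 0.0412% at E18. At E18, 19 members were under 1 RPKM and 32 under 2 RPKM.

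The fall was not even. From E11 to E12, 54 members were lower and only Smc2, a core condensin subunit, was marginally higher (15.5 and 15.7 RPKM). From E12 to E13 all 55 were lower. Between E13 and E14 the fall paused, with 29 members lower and 26 higher and a median ratio of 0.983. From E14 to E16 the median ratio was 0.503, and from E16 to E18 it was 0.231, with 55 of 55 lower in both steps. Relative to E11, the median member was at 76.4% at E12, 51.1% at E13, 50.3% at E14, 26.3% at E16 and 5.66% at E18. Over the whole course 28 members were lower at each later stage than at the one before, a pattern found for 6.5% of all genes tested. These steps compare 1 library with 1 library and have no replicate check.

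**Figure D2:**
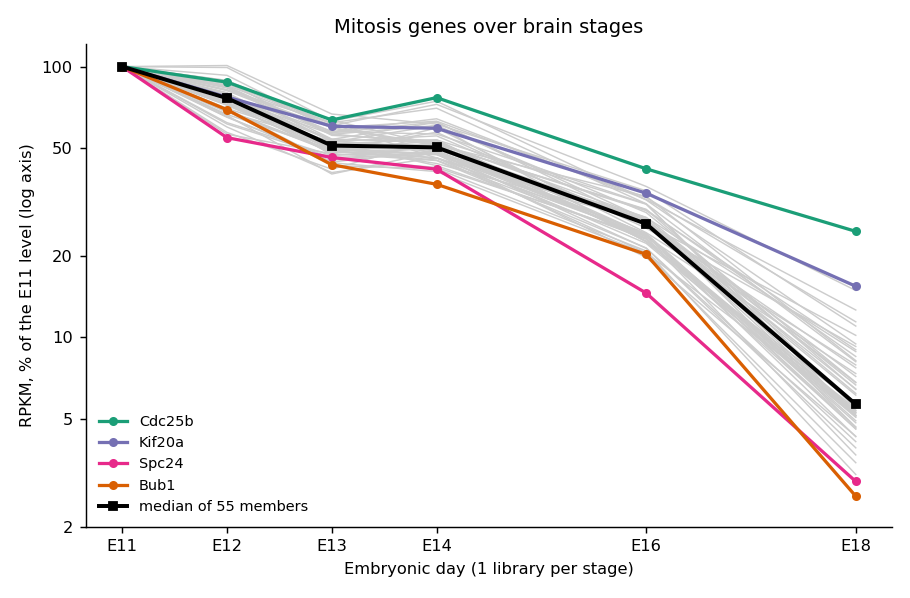
RPKM of 55 mitosis genes as % of the E11 level (log axis) at each embryonic day, 1 library per stage; grey lines are single members, the black line their median. The median is level between E13 (51.1%) and E14 (50.3%) and ends at 5.66% at E18, where Cdc25b stands highest (24.6%) and Bub1 lowest (2.59%).

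Among regulators of entry into mitosis, Ccnb1, the main mitotic cyclin, stood at 58.0, 42.6, 27.7, 26.1, 12.4 and 2.39 RPKM from E11 to E18 (slope -0.55 per day, SE 0.05). Cdc25b, a phosphatase that starts Cdk1 activation, stood at 26.3, 23.1, 16.7, 20.2, 11.0 and 6.48 RPKM, and had the smallest E11 over E18 ratio of all members (4.06). Ccnb1 thus ended far lower relative to its start than Cdc25b, with a ratio of 24.2. The other cyclin B gene, Ccnb2, had a ratio of 18.7 and the phosphatase gene Cdc25c one of 19.4. The contrast therefore does not extend to cyclin B and Cdc25 genes in general. The mitotic kinase Pbk stood at 72.5, 50, 35.4, 35.9, 19.6 and 4.16 RPKM. Melk, a kinase of cycling progenitors, had one of the highest ratios (32.1).

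At the centromere, Aurkb, the catalytic subunit of the chromosomal passenger complex, stood at 37.9, 29.2, 20.4, 23.6, 10.3 and 1.77 RPKM. Its scaffold Incenp had a smaller E11 over E18 ratio (7.92) than the kinase (21.4). Spc24, a subunit of the NDC80 complex that binds microtubule ends, stood at 34.5, 18.9, 15.9, 14.4, 5.04 and 1.01 RPKM. It had lost the most of all members by E12 (54.7% of the E11 level) and by E16 (14.6%). Its partners in that complex had E11 over E18 ratios of 25.6 (Spc25), 23.2 (Nuf2) and 19.7 (Ndc80), beside 34.0 for Spc24. Of the spindle checkpoint, the kinase Bub1 stood at 19.5, 13.5, 8.48, 7.18, 3.96 and 0.506 RPKM, the steepest course of the list by ratio (38.6). Bub1b, which blocks the anaphase-promoting complex, stood at 35.5, 28.3, 18.9, 17.9, 8.54 and 1.63 RPKM. Mad2l1, which works with it in the same inhibitor, had a lower ratio (9.82).

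Cdc20, the activator of the anaphase-promoting complex, was the most abundant member by RPKM at every stage, at 142, 99.5, 74.8, 86.0, 32.0 and 7.75. Ube2c, the ubiquitin-conjugating enzyme of that complex, stood at 127, 77.9, 58.6, 60.2, 25 and 5.47 RPKM and had the steepest slope (-0.57 per day, SE 0.06). On the spindle, Tpx2, which activates Aurora A and nucleates microtubules, stood at 53.7, 43.1, 26.9, 25.4, 14.2 and 3.47 RPKM. Kif15, a kinesin that holds spindles apart, had the highest ratio of the 11 spindle genes (29.0). The cytokinesis genes as a group had the lowest median E11 over E18 ratio of the 9 role groups (11.3), from 6.47 for the kinesin Kif20a to 27.1 for Ect2. Kif20a stood at 43.0, 33.2, 25.9, 25.4, 14.6 and 6.64 RPKM. Racgap1, the centralspindlin subunit that docks Ect2, stood at 35.6, 29.3, 21.2, 22.4, 11.7 and 4.07 RPKM. Anln, which encodes the contractile ring protein anillin, stood at 3.95, 3.42, 2.51, 2.03, 1.31 and 0.325 RPKM and was lowest of the list from E11 to E16. Kif20b, another cytokinesis kinesin, stood at 5.19, 4.35, 2.80, 2.73, 1.44 and 0.460 RPKM. Among chromosome proteins, the topoisomerase Top2a stood at 60, 46.7, 29.4, 27.1, 13.8 and 2.76 RPKM, and Mki67, which encodes the proliferation marker Ki-67, at 34.7, 26.5, 17.3, 16.0, 8.30 and 1.62 RPKM. The condensin subunit Ncapd2 kept more of its level, with a ratio of 6.71.

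Other lists moved over the same stages. Of a further 98 mitosis genes measured, 87 fell and 0 rose (median slope -0.27, 3 slopes being above 0 but not called), and of 32 DNA replication genes 30 fell and 0 rose. Summed radial glia markers were at 1273 RPKM at E11 and 746 at E18 (11 of 17 fell, 2 rose), and summed pan-neuronal markers at 1228 and 3969 RPKM (13 of 17 rose). Intermediate progenitor markers peaked at E14 (523 RPKM) and were at 65.2 at E18. Erythroid markers, which reflect blood in the sample, were at 7032 RPKM at E11, 1488 at E12 and 253 at E18. Whether blood or the mix of cell types had a part in the fall of the members was not tested. Across members the slope of log2(RPKM + 1) ran with exon length (Spearman 0.54 over 55 members, 0.01 over all genes). Its medians were -0.40 for 28 longer and -0.49 for 27 shorter members. That scale understates the fall of low genes, and whether E11 over E18 ratios ran with length was not tested. Exons of 17 members share bases with another gene, over 10% of the length in 7 (Ccna2, Cdc25c, Ube2c, Kif4, Kif20a, Prc1 and Ncapg), at most 29.3% (Kif20a). How strands were counted is not given in the sources used here, so these values may hold reads of a neighbour.

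The members' order by level differed between the tables. In the brain stages Ccnb1 was below Ccnb2, its sister B-type cyclin, with a ratio of RPKM within a library of 0.554 to 0.811. That ratio was 1.52 to 2.00 in NSC-Pex7sh and 1.78 to 1.92 in NSC-Scramble. In PLA1 it was 9.20 and 10.03, in Ctrl1 8.49 and 9.04, in Neuron-PLA 3.99 and 5.42, and in Neuron-ctrl 5.35 and 6.33. Cdk1, the kinase both cyclins bind, stood at 0.292 to 0.369 of Cdc20 in the stages. It stood at 0.190 to 0.195 of Cdc20 in NSC-Pex7sh and 0.188 to 0.213 in NSC-Scramble, but at 0.0219 and 0.0221 in PLA1 and 0.0183 and 0.0196 in Ctrl1. In Neuron-PLA it was 0.0256 and 0.0314, and in Neuron-ctrl 0.0293 and 0.0541. By level Cdk1 ranked 12 of 55 at E11, 54 in PLA1 and 53 in Ctrl1, and Ccnb2 ranked 4 at E11, 51 in PLA1 and 48 in Ctrl1. Cdc20 ranked 1 at E11 and at E18 and in each of these groups. Ratios within a library do not depend on its read total, and within the neuron table Cdk1 over Cdc20 ran from 0.0256 in Neuron-PLA library 2 to 0.0541 in Neuron-ctrl library 2. The difference is between tables and therefore between tissues, cultures or library runs, which cannot be told apart.

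**Figure D3:**
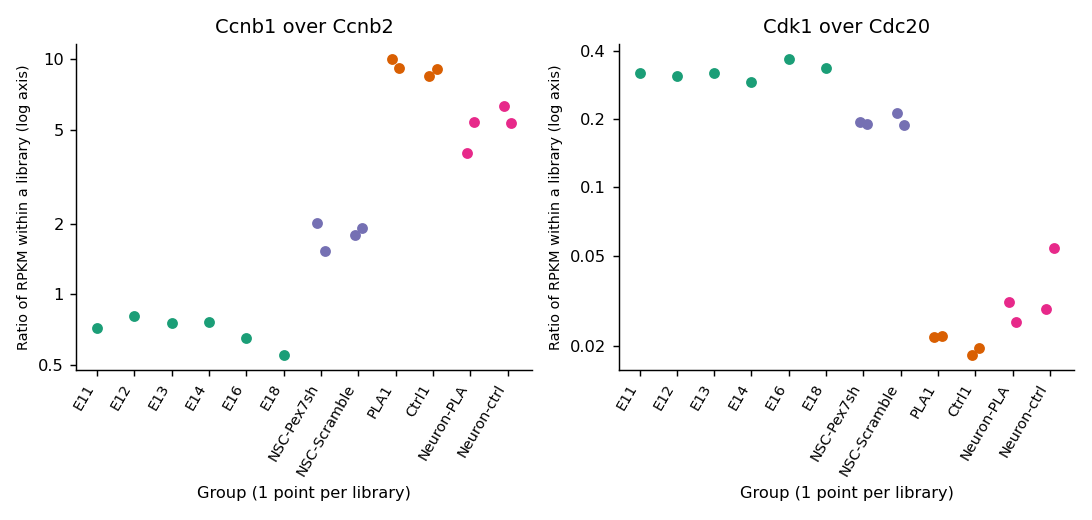
Ratio of RPKM within a library (log axis) of Ccnb1 over Ccnb2 (left) and Cdk1 over Cdc20 (right), 1 point per library, in the brain stages, the stem cells (NSC-Pex7sh left of NSC-Scramble) and both overexpression sets. Ccnb1 over Ccnb2 is under 1 in each stage and between 8.49 and 10.03 in PLA1 and Ctrl1, and Cdk1 over Cdc20 is between 0.0183 and 0.0221 there.

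In neural stem cells no member was called after Pex7 knockdown. With limma, 0 of 55 members had an adjusted p under 0.05 and 0 of 55 an unadjusted p under 0.05, against 0.0% and 1.47% of 12482 genes. Limma-voom on reads recovered from RPKM also called 0, with 0 at an unadjusted p under 0.05. The median log2 change was 0.05, from -0.09 to 0.18, with 39 members positive and 16 negative, beside -0.003 over all genes. The median ratio of means was 0.995, from 0.905 for Kif20b to 1.15 for Ndc80. Cdc20 averaged 52.7 ± 2.48 RPKM in Pex7sh and 52.7 ± 18.5 RPKM in Scramble (SD, n = 2 each), so the means met while the control libraries stood far apart. The same held for the list.

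The control libraries differed for all 55 members. Each was higher in Scramble library 1 than in library 2, against 49.4% of all genes. The median difference was 0.74 on the log2 scale (from 0.30 for Spc25 to 0.97 for Mki67), beside -0.003 over all genes. At least 1.5-fold on that scale were 44 members, against 3.47% of genes. As a ratio of RPKM the median was 1.81, from 1.28 (Spc25) to 2.05 (Kif2c, a microtubule-depolymerising kinesin). Both Pex7sh libraries lay between the Scramble libraries for 54 of 55 members, against 43.3% of all genes. The exception was Cdca3, which promotes entry into mitosis, at 12.3 and 10.1 RPKM in Pex7sh and 12.1 and 8.63 RPKM in Scramble. Within Pex7sh 49 members were higher in library 1 and 6 in library 2, by a smaller median. The median member difference between libraries 1 and 2 was 0.12 in Pex7sh, 0.03 in PLA1, -0.03 in Ctrl1, -0.03 in Neuron-PLA and 0.04 in Neuron-ctrl.

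The role groups shared this pattern. Ccnb1 had 22.9 and 18.7 RPKM in Pex7sh, against 27.3 and 15.0 RPKM in Scramble. Aurkb had 14.5 and 13.1 RPKM in Pex7sh, against 19.6 and 9.76 RPKM in Scramble. Mki67 had 28.9 and 24.6 RPKM in Pex7sh, against 37.5 and 18.7 RPKM in Scramble. In each of these the Pex7sh pair sat inside the range of the Scramble pair. Bub1b had 14.9 and 13.9 RPKM in Pex7sh, against 19.1 and 9.63 RPKM in Scramble. Racgap1 had 13.9 and 12.9 RPKM in Pex7sh, against 16.5 and 9.72 RPKM in Scramble. Spc25, the NDC80 subunit with the smallest gap, had 6.39 and 5.93 RPKM in Pex7sh, against 6.96 and 5.45 RPKM in Scramble. Tpx2 had 21.4 and 18.7 RPKM in Pex7sh, against 25.1 and 15.2 RPKM in Scramble, and for this gene and the next 2 the Pex7sh pair was again enclosed. Top2a had 27.9 and 25.2 RPKM in Pex7sh, against 34.2 and 18.9 RPKM in Scramble. Spc24 had 7.57 and 5.52 RPKM in Pex7sh, against 8.51 and 4.99 RPKM in Scramble. Among the 9 role groups the median gap between the Scramble libraries lay between 0.69 (spindle checkpoint) and 0.83 (cyclins, Cdk1 and its phosphatases).

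The largest rises and falls of the fit were small beside this spread. Pbk had 19.4 and 17.3 RPKM in Pex7sh, against 20.7 and 12.4 RPKM in Scramble (0.18, SE 0.24). Ndc80, the complex's namesake, had 2.89 and 2.96 RPKM in Pex7sh, against 3.10 and 2.00 RPKM in Scramble (0.16, SE 0.18). Cdc25c, another Cdk1-activating phosphatase, had 2.88 and 2.84 RPKM in Pex7sh, against 3.46 and 1.78 RPKM in Scramble (0.13, SE 0.24). In these 3 both Pex7sh libraries lay nearer to Scramble library 1. Ect2 had 8.75 and 6.74 RPKM in Pex7sh, against 9.82 and 4.88 RPKM in Scramble (0.12, SE 0.31). Kif20b had 4.04 and 3.49 RPKM in Pex7sh, against 5.12 and 3.20 RPKM in Scramble (-0.09, SE 0.20). Aspm, a spindle pole gene mutated in human microcephaly, had 6.77 and 6.16 RPKM in Pex7sh, against 9.42 and 4.83 RPKM in Scramble (-0.06, SE 0.28). These 2 lay a little nearer to Scramble library 2. Cenpf had 6.50 and 5.21 RPKM in Pex7sh, against 8.06 and 4.44 RPKM in Scramble (-0.04, SE 0.26). Cdc25b had 5.76 and 7.78 RPKM in Pex7sh, against 8.77 and 5.58 RPKM in Scramble (-0.06, SE 0.23).

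Which Scramble library served as the control set the sign. Without Scramble library 1 all 55 changes were positive (median 0.40). Without Scramble library 2 all 55 were negative (median -0.33). For 54 members these signs follow from the Pex7sh libraries lying between the Scramble libraries. No member was called in either case, where among the libraries only the Pex7sh pair supplied a spread. Other progenitor genes moved with the members between the Scramble libraries. Of the further mitosis genes 90 of 98 were higher in library 1 (median 0.44). All 32 DNA replication genes were higher there (median 0.61), as were 15 of 17 radial glia markers (median 0.42), while 17 of 17 pan-neuronal markers were lower (median -0.43). Summed radial glia markers were at 1255 to 1275 RPKM in Pex7sh and 1016 to 1420 RPKM in Scramble. Their part in the members' values was not tested.

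**Figure D4:**
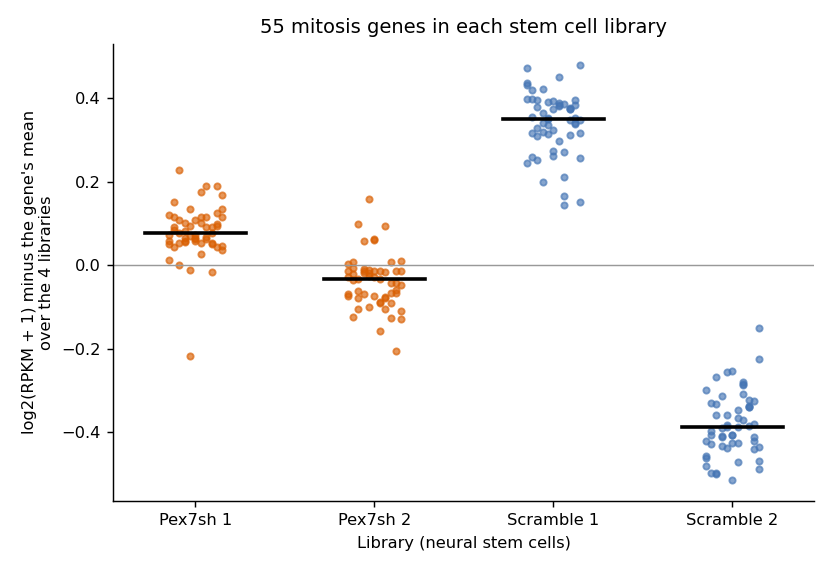
Log2(RPKM + 1) of each of 55 mitosis genes minus its mean over the 4 stem cell libraries, in Pex7sh (left) and Scramble (right); points are genes and black bars medians. Each gene is higher in Scramble library 1 than in library 2, by a median of 0.74, and the Pex7sh libraries lie between them for 54 genes.

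In the first overexpression set most mitosis genes rose. Of 55 members 50 rose in PLA1 against Ctrl1 and 0 fell, against 16.3% of 11623 genes that rose and 29.6% called in either direction. In all 55 both PLA1 libraries were above both Ctrl1 libraries, a pattern seen in 39.6% of genes, with 29.7% the other way round. The median log2 change was 0.60, from 0.20 to 0.96, beside 0.06 over all genes, and the median ratio of means was 1.55. The list's summed RPKM made up 0.967% and 0.960% of all RPKM in PLA1, against 0.579% and 0.603% in Ctrl1. Cytokinesis genes had the second highest group median (0.79, 7 of 7 rose), next to the chromosomal passenger complex (0.80, 4 of 4 rose). The group of Cdc20, Ube2c, Pttg1 and Cdca3 had the lowest (0.39, 3 of 4 rose).

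The largest change was in Prc1, which bundles the microtubules of the central spindle, with 23.2 and 20.8 RPKM in PLA1, against 10.2 and 11.4 RPKM in Ctrl1 (0.96, SE 0.11, adjusted p = 0.00134). Cenpe, a kinesin of the kinetochore, had 23.4 and 31.1 RPKM in PLA1, against 13.4 and 13.7 RPKM in Ctrl1 (0.94, SE 0.14, adjusted p = 0.00324). Cenpf, a large kinetochore protein, had 11.8 and 14.7 RPKM in PLA1, against 5.79 and 7.34 RPKM in Ctrl1 (0.91, SE 0.15, adjusted p = 0.00564). For all 3 the lowest PLA1 library stood well above the highest Ctrl1 library, and the PLA1 pair spread more than the Ctrl1 pair in Cenpe. Kif23, the motor of centralspindlin, had 7.45 and 7.39 RPKM in PLA1, against 3.40 and 3.59 RPKM in Ctrl1 (0.91, SE 0.13, adjusted p = 0.00283), the highest ratio of means (2.13). Its partner Racgap1 had 61.7 and 56.0 RPKM in PLA1, against 39.0 and 39.7 RPKM in Ctrl1 (0.57, SE 0.08, adjusted p = 0.00332). Both centralspindlin genes were thus higher in each PLA1 library.

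Of the passenger complex, Aurkb had 87.4 and 93.0 RPKM in PLA1, against 49.1 and 50.5 RPKM in Ctrl1 (0.84, SE 0.08, adjusted p = 0.000568, the smallest of the list). Its partners Cdca8 (borealin), Birc5 (survivin) and Incenp had ratios of means of 1.81, 1.70 and 1.62, beside 1.81 for Aurkb. Plk1, a kinase needed for spindle assembly and cytokinesis, rose by 0.84, and all 5 mitotic kinases rose. Pbk had 110 and 103 RPKM in PLA1, against 69.8 and 71.1 RPKM in Ctrl1 (0.59, SE 0.07). Among spindle genes Tpx2 had 97.8 and 90.5 RPKM in PLA1, against 61.8 and 65.5 RPKM in Ctrl1 (0.56, SE 0.08). The other 10 spindle genes rose as well, from 0.48 for Kif2c to 0.91 for Aspm. Top2a had 63.1 and 58.5 RPKM in PLA1, against 35.7 and 35.3 RPKM in Ctrl1 (0.76, SE 0.08). The condensin genes rose by 0.88 (Smc4), 0.86 (Ncaph), 0.84 (Smc2), 0.72 (Ncapg) and 0.50 (Ncapd2).

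The most abundant cyclin, anaphase and checkpoint members had the following values. Ccnb1 had 90.9 and 81.4 RPKM in PLA1, against 60.7 and 57.5 RPKM in Ctrl1 (0.53, SE 0.08). Cdc20 had 269 and 274 RPKM in PLA1, against 207 and 199 RPKM in Ctrl1 (0.42, SE 0.06, adjusted p = 0.00411). Bub1b had 45.7 and 38.7 RPKM in PLA1, against 29.2 and 28.5 RPKM in Ctrl1 (0.53, SE 0.10). These rises were near or under the list's median. Spc24 had 45.7 and 47.4 RPKM in PLA1, against 36.8 and 34.1 RPKM in Ctrl1 (0.38, SE 0.08, adjusted p = 0.0143), a call lost without Ctrl1 library 2 (0.0922) or PLA1 library 2 (0.0587).

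The other 5 members were not called, although their groups did not overlap. Cdca3 had 43.6 and 41.6 RPKM in PLA1, against 37.6 and 36.2 RPKM in Ctrl1 (0.20, SE 0.08, adjusted p = 0.0975). Mad2l1 had 3.85 and 3.65 RPKM in PLA1, against 3.45 and 2.82 RPKM in Ctrl1 (0.20, SE 0.15, adjusted p = 0.346). Cdc25c had 16.7 and 15.1 RPKM in PLA1, against 13.6 and 12.4 RPKM in Ctrl1 (0.28, SE 0.11, adjusted p = 0.0903). The gap between the groups was narrower than the spread of the Ctrl1 pair in Mad2l1 and than that of the PLA1 pair in Cdc25c. Cenpa, the histone variant that marks centromeres, had 22.8 and 24.1 RPKM in PLA1, against 20.1 and 16.5 RPKM in Ctrl1 (0.35, SE 0.11, adjusted p = 0.0571). Ccnb2 had 9.06 and 8.85 RPKM in PLA1, against 7.15 and 6.36 RPKM in Ctrl1 (0.36, SE 0.12, adjusted p = 0.0578).

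Of the further mitosis genes 64 of 98 rose and 2 fell, with a median of 0.58. The 3 rises of smallest adjusted p were Cdca2 (1.18), which brings a phosphatase to chromosomes at mitotic exit, Fbxo5 (0.95), an inhibitor of the anaphase-promoting complex, and Pkmyt1 (1.30), a kinase that inhibits Cdk1. The 2 that fell, Cdc26 (-0.46) and Anapc10 (-0.38), encode subunits of the anaphase-promoting complex. Of 31 DNA replication genes tested 25 rose and 0 fell, and of 17 radial glia markers 9 rose and 1 fell, with a summed 632 to 674 RPKM in PLA1 and 515 to 529 RPKM in Ctrl1. Pan-neuronal markers fell for 11 of 17. Microglia markers fell for 10 of 11 tested, at a summed 199 to 213 RPKM in PLA1 and 451 to 487 RPKM in Ctrl1, and Trem2, one of these markers, was at 0 in PLA1 library 1. Their part in the members' rise was not tested. The change ran with exon length here too (Spearman 0.44 over members, 0.19 over all genes), with medians of 0.75 for longer and 0.56 for shorter members. With the exon length trend removed, 49 members were called, 48 of them among the 50. No share over all genes is given for that fit.

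In the neuron set no member passed the test. Of 54 members tested in Neuron-PLA against Neuron-ctrl, 0 were called with limma, against 0.877% of 11179 genes. An unadjusted p under 0.05 was found for 12 of them, against 17.7% of genes. Limma-voom called 0, with 14 of 53 at an unadjusted p under 0.05, for which no share over all genes is given. The median log2 change was -0.25, from -0.79 to 0.22, with 43 negative and 11 positive, beside 0.002 over all genes. Of the 54, 32 had both Neuron-PLA libraries below both Neuron-ctrl libraries, against 25.3% of genes, 3 had them above, against 24.7%, and 19 overlapped. The list's summed RPKM made up 0.101% of all RPKM in both Neuron-PLA libraries, against 0.123% and 0.120% in Neuron-ctrl.

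Cdc20, with the smallest adjusted p, had 29.2 and 30.7 RPKM in Neuron-PLA, against 42.1 and 40.5 RPKM in Neuron-ctrl (-0.45, SE 0.09, adjusted p = 0.0798). When only genes averaging 5 RPKM or more were fitted it was called (adjusted p = 0.0441). The lowest value was that of Pttg1, which encodes securin, the inhibitor of separase, with 3.76 and 6.48 RPKM in Neuron-PLA, against 8.14 and 10.7 RPKM in Neuron-ctrl (-0.79, SE 0.23, adjusted p = 0.149). Spc24 had 3.26 and 3.55 RPKM in Neuron-PLA, against 5.81 and 6.37 RPKM in Neuron-ctrl (-0.69, SE 0.16, adjusted p = 0.0974). In these the groups did not overlap, though the securin libraries of each group differed by more than 2 RPKM. Aurkb had 6.25 and 6.43 RPKM in Neuron-PLA, against 11.5 and 9.44 RPKM in Neuron-ctrl (-0.64, SE 0.15, adjusted p = 0.0972). Cdc25b had 2.13 and 3.73 RPKM in Neuron-PLA, against 5.34 and 4.64 RPKM in Neuron-ctrl (-0.64, SE 0.23, adjusted p = 0.213). Kif23 had 0.476 and 0.473 RPKM in Neuron-PLA, against 1.00 and 0.810 RPKM in Neuron-ctrl, and with a mean under 1 RPKM it was not tested.

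Of the most abundant members of each role, Ccnb1 had 8.20 and 10.6 RPKM in Neuron-PLA, against 15.3 and 13.5 RPKM in Neuron-ctrl (-0.58, SE 0.15). Tpx2 had 8.60 and 6.65 RPKM in Neuron-PLA, against 11.6 and 12.0 RPKM in Neuron-ctrl (-0.58, SE 0.15). Pbk had 16.4 and 12.6 RPKM in Neuron-PLA, against 17.6 and 17.4 RPKM in Neuron-ctrl (-0.26, SE 0.14). In these 3 both Neuron-PLA libraries were lower. Bub1b had 1.68 and 3.20 RPKM in Neuron-PLA, against 4.99 and 2.78 RPKM in Neuron-ctrl (-0.50, SE 0.30), and its groups overlapped.

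The 11 positive members were Cenpe, Cenpf, Kif4, Dlgap5, Aspm, Kif20b, Anln, Racgap1, Ncapg, Smc4 and Top2a, among them 3 of the 6 cytokinesis genes tested. Cenpe had 2.97 and 3.25 RPKM in Neuron-PLA, against 2.69 and 2.37 RPKM in Neuron-ctrl (0.22, SE 0.18). Aspm had 1.53 and 1.55 RPKM in Neuron-PLA, against 1.40 and 1.18 RPKM in Neuron-ctrl (0.15, SE 0.22). Kif20b had 3.62 and 3.55 RPKM in Neuron-PLA, against 3.39 and 3.0 RPKM in Neuron-ctrl (0.13, SE 0.17). In these 3 the groups did not overlap, but each change was within 1.5 times its SE. Ncapg had 1.8 and 0.841 RPKM in Neuron-PLA, against 1.16 and 1.02 RPKM in Neuron-ctrl (0.12, SE 0.28). Top2a had 7.52 and 5.48 RPKM in Neuron-PLA, against 5.99 and 5.77 RPKM in Neuron-ctrl (0.11, SE 0.17). Racgap1 had 9.95 and 9.14 RPKM in Neuron-PLA, against 9.32 and 9.11 RPKM in Neuron-ctrl (0.04, SE 0.13). The groups overlapped in Ncapg and Top2a, and the Racgap1 libraries were nearly level. Dlgap5, a spindle assembly factor, had 1.28 and 1.72 RPKM in Neuron-PLA, against 0.947 and 1.79 RPKM in Neuron-ctrl. The condensin subunit Smc4 had 9.40 and 9.08 RPKM in Neuron-PLA, against 9.99 and 7.69 RPKM in Neuron-ctrl. Kif4, a chromosome-borne kinesin, had 3.02 and 3.23 RPKM in Neuron-PLA, against 3.36 and 2.54 RPKM in Neuron-ctrl. Groups overlapped in all 3, as they did in Anln and Cenpf. Anln had 1.14 and 0.997 RPKM in Neuron-PLA, against 0.948 and 1.00 RPKM in Neuron-ctrl. Cenpf had 2.16 and 1.94 RPKM in Neuron-PLA, against 1.99 and 1.84 RPKM in Neuron-ctrl.

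One of the further mitosis genes was called, Hmgb2, which encodes a chromatin protein of cycling cells (-0.60, adjusted p = 0.0452), among 81 tested. Endothelial markers were at a summed 2.40 to 2.63 RPKM in Neuron-PLA and 23.8 to 24.0 RPKM in Neuron-ctrl, with 3 of 10 at 0 in both Neuron-PLA libraries. Microglia markers were at 84.5 to 96.1 RPKM in Neuron-PLA and 152 to 153 RPKM in Neuron-ctrl, and radial glia markers at 355 to 376 RPKM in Neuron-PLA and 495 to 501 RPKM in Neuron-ctrl. Erythroid markers were at 30.8 to 41.0 RPKM in Neuron-PLA and 82.3 to 89.0 RPKM in Neuron-ctrl, with 1 of 3 tested called lower. Also called lower were 2 of 14 radial glia, 2 of 11 microglia and 1 of 1 endothelial markers tested, against 0.501% of all genes. Of 17 pan-neuronal markers 0 were called. The part of these cell types in the members' values was not tested. Changes again ran with exon length (Spearman 0.56 over members, 0.27 over all genes), with medians of -0.13 for longer and -0.34 for shorter members.

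**Figure D5:**
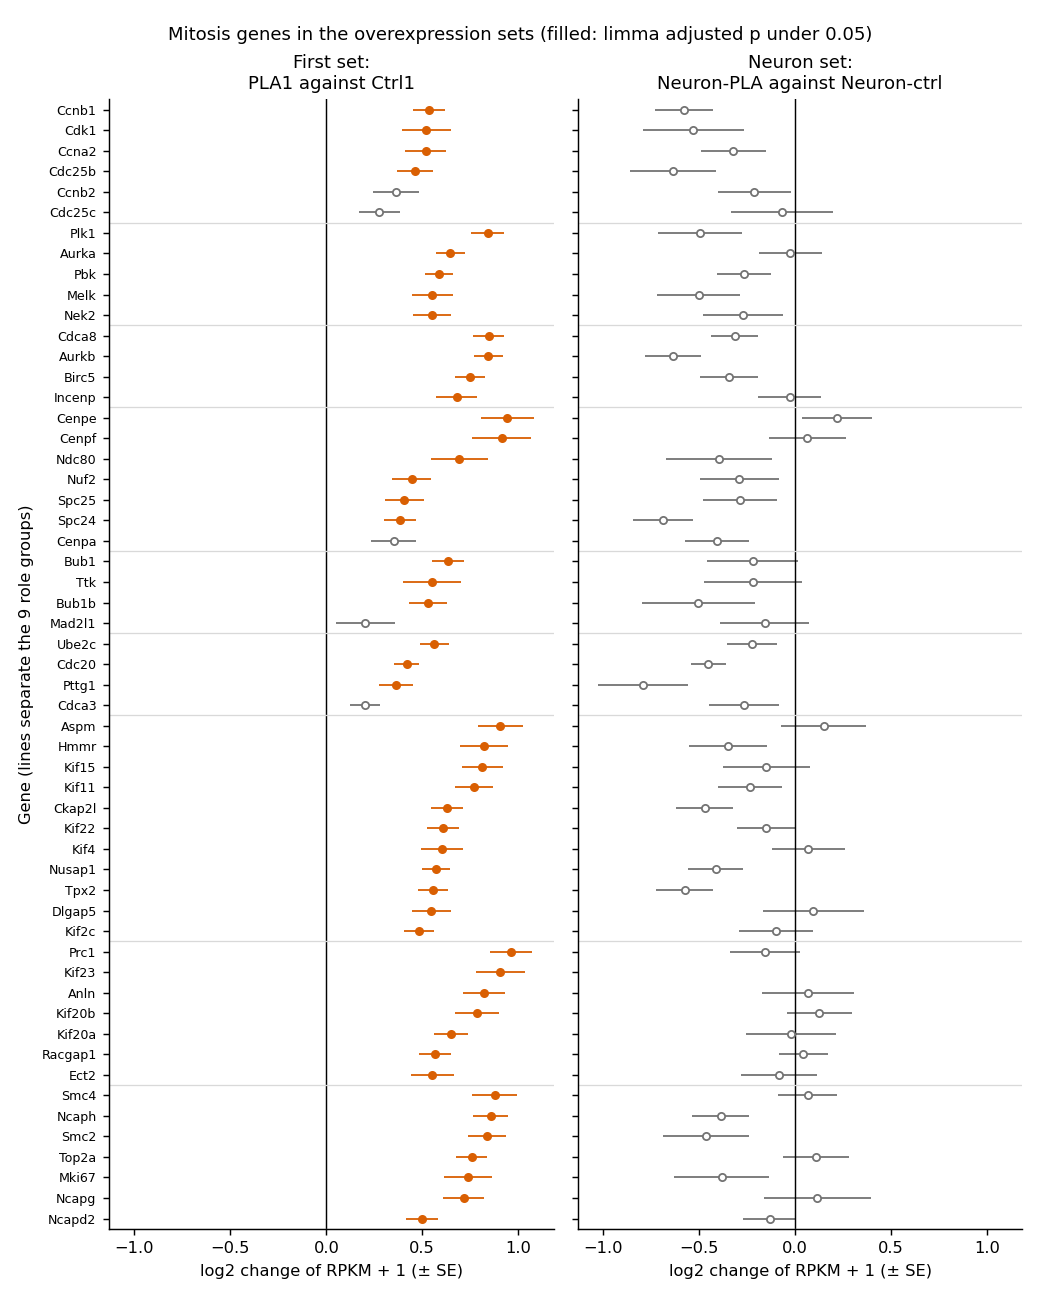
Log2 change of RPKM + 1 (± SE, 2 libraries per group) of each member in PLA1 against Ctrl1 (left) and in Neuron-PLA against Neuron-ctrl (right), with lines between the 9 role groups; filled points passed limma's adjusted p under 0.05. All 55 points of the first set lie above 0 and 50 are filled, while 43 of 54 points of the neuron set lie below 0 and none is filled.

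The change in the first set was then set against that in the neuron set in 1 limma fit over the 8 libraries, as a difference of the differences within each table. It was higher in the first set for 40 of 55 members and lower for 0, against 6.19% of 11705 genes that were higher. Of the 55 members, 17 were called with no filter on low values, 19 without Ctrl1 library 1, 20 without Ctrl1 library 2, 23 without PLA1 library 1 and 21 without PLA1 library 2. Without 1 library of the neuron set, 28 to 32 were called. Shares over all genes are not given for these settings, so the lower counts cannot be read as particular to the members. With all 8 libraries and the filter, the median difference was 0.84 on the log2 scale. It ran from 0.34 for Cdc25c to 1.48 for Aurkb, beside 0.04 over all genes. The smallest adjusted p belonged to Aurkb (1.48, SE 0.15, adjusted p = 0.000487), with a ratio of means of 1.81 in the first set and 0.607 in the neuron set. Cdca8 of the same complex followed (1.16, SE 0.13, adjusted p = 0.000636), then Cdc20 (0.87, SE 0.10, adjusted p = 0.000739), Ncaph (1.24, SE 0.15, adjusted p = 0.00117) and Spc24 (1.07, SE 0.15, adjusted p = 0.0022). By role all 4 passenger complex genes and all 5 mitotic kinases were called, but 1 of 4 spindle checkpoint genes (Bub1). Levels differed between the control groups of the sets. The members' median RPKM was 22.8 in both Ctrl1 libraries, and 4.55 and 4.14 in the Neuron-ctrl libraries, from tables normalised separately. Of the further mitosis genes 37 of 98 were higher in the first set and 0 lower, led by Pkmyt1 (1.78), Hmgb2 (0.94) and Tacc3 (1.27).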

How the data were processed

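Per the submitters' processing notes, STAR 2.7.9a, HTSeq 0.6.0 and the mm10 build were used. The deposited tables held RPKM by the authors, a unit no header names. Each RPKM times GENCODE M21 merged exon length and a read total per library gave whole reads, within 0.01, for 97.5% to 97.8% of values, and these are the read totals and reads given. All sample columns were used.

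Log2(RPKM + 1) was fitted in R 4.3.3 by limma 3.58.1, whose prior variance followed the mean level. Genes averaging 1 RPKM or more entered, and each fit kept to 1 table except that of the difference between the overexpression sets. Limma-voom on the recovered reads called 54, 0, 50, 0 and 36 members for the stage slope, Pex7sh, PLA1, Neuron-PLA and the set difference. Bub1 was left out, as it gave no whole reads, and shares over all genes under limma-voom are not given. With 2 libraries against 2 an exact permutation test cannot go below 0.333, so none is given. Fits were also run on simulated data, but no outcome is given here, so this is no check of the results.

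Members given by library were the most abundant of each role group, the 4 largest and 4 smallest changes, and those against the majority, of which 9 with changes near 0 in Pex7sh are not listed. Promoter stretches were set to 150 bases holding both motifs and those with over 30 exonic bases left out, and the exon length alternative and the 50-base motif distance chosen, after seeing the data. Members and lists were chosen with earlier results of these data known. Lists other than the members held 98 further mitosis genes, 32 DNA replication genes and markers of cell types. Over all genes, deviations of libraries with the same replicate number hardly correlated (0.0101 for Pex7sh, 0.0991 for PLA1 and 0.0468 for Neuron-PLA). Such low values cannot exclude that replicate numbers pair libraries, so this was left undecided.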

Additional observations from a re-analysis of the deposited data

Results flagged for a closer look

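The change with overexpression differed between the first set and the neuron set for 40 of 55 members, by limma's test of the difference itself, against 6.19% of all genes that were higher in the first set. The count was 17 with no filter on low values and 19 to 32 with a library left out. No share over all genes is given for these settings, so the lower counts cannot be read as particular to the members. Aurkb (1.48), Cdca8 (1.16), Cdc20 (0.87), Ncaph (1.24) and Spc24 (1.07) had the smallest adjusted p. Values in brackets are log2 changes in the first set minus those in the neuron set. For each of these 5, both PLA1 libraries were above both Ctrl1 libraries and both Neuron-PLA libraries were below both Neuron-ctrl libraries. The 5 were picked by the fit of these same libraries, so this pattern is no separate check. The sets differ in their tables, their libraries and the cells they hold, which cannot be told apart from a different response.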

How the results depend on the processing

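Scaling, pseudocount, filter, tool and leave-one-out alternatives kept the sign of the member median in the stages and both overexpression sets. With the exon length trend removed, 55 members were called for the stage slope, 49 for PLA1 and 34 for the set difference. None was called for Pex7sh or Neuron-PLA. The median stage slope of -0.44 was -0.53 with a pseudocount of 0.1, -0.51 with limma-voom, -0.59 per step with stage order in place of day, and -0.47 to -0.34 with a stage left out. After Pex7 knockdown, leaving out a library moved single changes across 0, with ranges of -0.36 to 0.18 for Kif20b, -0.48 to 0.36 for Aspm, -0.34 to 0.23 for Cdc25b, -0.41 to 0.33 for Cenpf, -0.32 to 0.56 for Ect2, -0.21 to 0.47 for Cdc25c, -0.064 to 0.39 for Ndc80 and -0.17 to 0.52 for Pbk. In the neuron set Ncapg ranged from -0.18 to 0.42, and 1 member was called at a mean of at least 5 RPKM. Members called in PLA1 numbered 35 with no filter and 41 to 46 with a library left out. For the set difference 17 were called with no filter and 19 to 32 with a library left out, the lone library being assumed to vary like the others. The cause was not tested. Shares over all genes are not given for these alternatives or for the replicate block below. Changes in the counts can therefore not be read as particular to the members.

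Whether replicate numbers pair the libraries is not in the labels. With the replicate block 0 members were called for Pex7sh, 52 for PLA1, 0 for Neuron-PLA and 38 for the set difference. With 2 libraries per group, and 1 per stage, small changes cannot be resolved, and members near 1 RPKM in the neuron set rest on few reads.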
